A study of Mus musculus with 6 samples.

Results

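The granins and their partners in the membrane of the secretory granule were examined as a group of 10 genes, namely *Chga*, *Chgb*, *Scg2*, *Vgf*, *Scg3*, *Scg5*, *Pcsk1n*, *Pam*, *Ptprn* and *Ptprn2*. The group was chosen by name and function, and all 10 were among the 53801 mouse genes listed for each clone and among the 17823 genes whose level was high enough to be tested. The cells were MIN6, a mouse insulinoma line used as a model of the β cell. In every clone the cells expressed Cas9 and had received a lentiviral gRNA with puromycin selection, and every clone was grown from a single cell. Control clones carried a gRNA to an intron of *Snd1* and *Snd1* KO clones carried a gRNA to *exon 2* of the same gene, with 3 clones and 1 RNA library per clone in each group. A clone is thus the unit of replication, and a p-value here measures the spread between clones of 1 cell line. The comparison asked how the mRNAs of the granins and granule proteins differed between β cell lines targeted in the coding region and in the intron of *Snd1*.

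Granins are acidic, heavily charged proteins that aggregate in the calcium-rich, acidic lumen of the trans-Golgi network and the immature granule, where they help to sort prohormones such as proinsulin into the regulated secretory pathway. Several are also precursors that the granule enzymes cut into smaller secreted peptides. Other members of the group act beside them: *Scg5* and *Pcsk1n* encode small proteins that bind the prohormone convertases, *Pam* encodes the enzyme that amidates the end of many neuropeptides, and *Ptprn* and *Ptprn2* encode granule membrane proteins of the receptor-type phosphatase family that are autoantigens in type 1 diabetes. They are used as markers of neuroendocrine cells because most other cell types do not make dense-core granules.

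Many granin genes carry a cAMP response element (CRE) near their start, a DNA motif bound by CREB family proteins, so the promoters were searched for it. RefSeq promoter sequences (build GRCm38.p6), each with 250 bases before and 50 bases after a transcription start, were matched for 9 of the 10 genes, without *Vgf*. The sequences shown are the 30 bases around each match upstream of the start, read 5′ to 3′ on the strand of the gene. Capitals mark the full CRE letters TGACGTCA or, where only the shorter TGACG is present, those letters or their reverse complement CGTCA.
Chgb, chr2:132781559-132781588, plus strand: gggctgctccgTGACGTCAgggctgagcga
Scg2, chr1:79440076-79440105, minus strand: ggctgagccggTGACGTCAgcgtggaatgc
Chga, chr12:102554885-102554914, plus strand: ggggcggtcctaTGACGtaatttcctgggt
Scg3, chr9:75684069-75684098, minus strand: gcgctgggtcgcTGACGccatcctcacgcc
Scg5, chr2:113829249-113829278, minus strand: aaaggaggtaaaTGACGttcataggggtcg
Ptprn, chr1:75264308-75264337, minus strand: cttacgccagtaTGACGcaaataggcataa
Ptprn, chr1:75264271-75264300, minus strand: gggtggagatgtCGTCAttgcacgcctgca
Both strands were searched, and the shorter letters lie within the full ones, so that the counts of both motifs overlap. The full CRE was found in *Chgb*, with its first base at position −72 from the start, and in *Scg2*, at position −68, which makes 2 of 9 genes against 1.79% of 32851 mouse promoters of the same length. TGACG was found in 6 of 9 genes against 20.8% of promoters. Its first base lay at −44 in *Chga*, −30 in *Scg3*, −175 in *Scg5* and −117 and −80 in *Ptprn*, and *Scg5* also held it at positions 20 and 41 after the start. *Ptprn2*, *Pcsk1n* and *Pam* held neither in this window. The GC box GGGCGG was found in 7 of 9 genes (35.7% of promoters), the E box CANNTG in 8 of 9 (72.3%), TATAAA in 1 of 9 (*Chga*, 13.6%) and CAGCACC, a stretch of the site bound by the neuronal repressor REST, in 3 of 9 (*Chgb*, *Scg2* and *Ptprn2*, 7.14%). For a gene with more than 1 start a match at any start counted, whereas the shares are per promoter. *Ptprn* held the GC box only at start 2, and the TATAAA of *Chga* lay at position 6 after the start. In the GENCODE M21 annotation, exons of *Chgb* and *Scg2* begin further upstream than the RefSeq start and include the bases shown, those of *Ptprn* lie in an intron, and those of *Chga*, *Scg3* and *Scg5* lie upstream of the gene. These matches are a description of letters and not of bound sites.

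Levels are given as TPM, a read count corrected for gene length and scaled to a total of 1000000 in every library. Recovered from the TPM, 25787801 to 32966689 reads lay on genes in each clone. The members held from 1731 (*Pcsk1n*) to 283575 (*Scg2*) reads in a clone, which puts the counting error at the lowest count of each gene between 0.228% and 2.40%. The recovered reads exceed the number of reads per library given in the study's methods for these paired-end libraries, and if the mates of a pair were counted singly the counting error is larger than stated. *Snd1* itself had 112 to 119 TPM in the controls and 14.7, 57.1 and 19.9 TPM in *Snd1* KO 1 to 3, so that *Snd1* KO 2 kept the most *Snd1* mRNA, 49.8% of the control mean. The study chose the *Snd1* KO clones for loss of SND1 protein on immunoblots and reported disrupting indels in *exon 2*. The mRNA left is therefore not a measure of the protein left. Of 10 β cell markers 9 were above 1 TPM in every clone, the exception being *Ucn3*, and their sum ranged from 47147 to 80889 TPM over control and from 51534 to 88243 TPM over *Snd1* KO clones. *Iapp* was the largest part in every clone, and single β cell markers differed in direction. *Slc2a2* averaged 132 TPM over control and 54.9 TPM over *Snd1* KO clones, and *Slc30a8* 383 and 864 TPM. Of 7 α cell markers, *Ttr* held most of a sum that ranged from 14761 to 20378 TPM over control and from 3342 to 9320 TPM over *Snd1* KO clones, while *Irx2* was below 1 TPM in every clone. Other α cell markers did not follow *Ttr*: *Gc* averaged 158 TPM over the controls and 296 TPM over the *Snd1* KO clones, and *Gcg* 251 and 434 TPM, with 1100 TPM in *Snd1* KO 1 and the other *Snd1* KO clones below every control. *Irx1* had at most 0.0547 TPM in the controls and from 0.105 to 3.30 TPM in the *Snd1* KO clones. Markers of gut and other endocrine cells ranged in sum from 1939 to 3375 TPM over control and from 424 to 1210 TPM over *Snd1* KO clones. *Cck* was the largest part in every clone and *Sct* the next except in *Snd1* KO 1. *Tph1* went the other way, with a mean of 11.4 TPM over control and 35.7 TPM over *Snd1* KO clones, and 89.2 TPM in *Snd1* KO 1. Sums of δ cell markers were 24.4 to 40.2 TPM in the controls and 4.57 to 10.3 TPM in the *Snd1* KO clones, those of endothelial markers 1.22 to 2.21 and 2.91 to 10.4 TPM. *Rbp4* was the largest part of the δ cell sum except in *Snd1* KO 1, where *Sst* had 2.42 and *Rbp4* 1.07 TPM, and *Sst* was below 1 TPM in the other clones. Unlike *Rbp4*, the low *Sst*, *Ghsr* and *Lepr* had higher means over *Snd1* KO clones (0.806, 0.507 and 0.113 TPM) than over control (0.170, 0.260 and 0.0472 TPM). *Plvap* was the largest part of the endothelial sum in every clone. *Pecam1*, *Kdr* and *Cdh5* were below 1 TPM in every clone and had lower means over *Snd1* KO clones (0.0720, 0.0148 and 0.0731 TPM) than over control (0.189, 0.0822 and 0.124 TPM). Duct markers, with *Krt7* the largest part in every clone, overlapped with 2.31 to 73.1 and 44.3 to 87.3 TPM. The part of these sums in the results on granins was not tested. In bulk RNA, fewer cells with a transcript and less of it per cell cannot be told apart.

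Granin mRNAs were among the abundant messages of these cells. Together the 10 genes held 36343, 40457 and 30384 TPM in control 1 to 3 and 34493, 26707 and 34631 TPM in *Snd1* KO 1 to 3, or 2.67% to 4.05% of all TPM. The sum averaged 35728 ± 5065 TPM in the control and 31944 ± 4535 TPM in the *Snd1* KO group (SD, n = 3 each), and the groups overlapped (exact two-sided permutation test, p = 0.4). Between 82.6% and 87.4% of the sum in each clone came from *Chga*, *Chgb* and *Scg2*. For an order of genes by level the TPM was recomputed with each exonic base counted once, since the length in the deposited values is summed over all transcripts. On this scale the mean over the 6 clones was 10758 TPM for *Scg2*, 8698 for *Chga*, 5227 for *Chgb*, 2907 for *Scg3*, 1030 for *Ptprn* and 992 for *Scg5*. Lower levels were seen for *Vgf* with 306 TPM, *Ptprn2* with 207 TPM, *Pcsk1n* with 145 TPM and *Pam* with 121 TPM. *Scg2* was above *Chga* in 5 of 6 clones, *Chga* above *Chgb*, *Chgb* above *Scg3*, *Scg3* above *Ptprn*, *Scg5* above *Vgf* and *Ptprn2* above *Pcsk1n* in 6 of 6. The order of the other neighbours varied between clones. *Ptprn* was above *Scg5* in all 3 control clones (1278 ± 194 against 1039 ± 9.77 TPM, SD, n = 3) and in *Snd1* KO 1, but below it in *Snd1* KO 2 and *Snd1* KO 3 (group means 782 ± 320 against 946 ± 6.34 TPM). *Vgf* was above *Ptprn2* in all 3 control clones (400 ± 5.69 against 213 ± 14.1 TPM) and in *Snd1* KO 1, and below it in the other *Snd1* KO clones (212 ± 167 against 200 ± 33.5 TPM). *Pam* and *Pcsk1n* were alike in control (160 ± 34.5 against 158 ± 7.35 TPM), and in *Snd1* KO clones *Pam* was above in 1 and below in 2 (82.5 ± 31.8 against 131 ± 31.6 TPM).

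In *Snd1* KO clones 9 of the 10 mRNAs had a lower mean than in control, and only *Chga* had a higher mean. The median log2 fold change of TPM + 1 was −0.27 over the members and 0.044 over all genes tested, of which 42.7% were negative. None of the 10 was differentially expressed by limma, with thresholds of 0.05 for the adjusted p-value and 2-fold for the size (0 of 10 also with voom on recovered reads), against 0.00561% of all genes tested (1 of 17823), and the adjusted p-values lay between 0.575 and 0.887. *Snd1* itself did not pass in this fit (log2 fold change −2.11, limma adjusted p = 0.511). A gene that did not pass is thus not shown to be unchanged. The study, with its own processing of the reads, reported both lower and higher genes at these thresholds. At an unadjusted p-value under 0.05, *Vgf*, *Pam* and *Ptprn* were lower, which is 3 of 10 genes against 2.33% of all genes lower at that threshold. *Scg3*, *Scg5* and *Pam* had their highest *Snd1* KO value below their lowest control value, again 3 of 10 against 4.03% of all genes, and 0 of 10 stood above all controls in the 3 *Snd1* KO clones, against 9.69% of all genes. The count of 3 was 6 with scaling by the median ratio (6.14% of all genes) and 2 with quantile normalization (7.55% of all genes), and only *Pam* did not overlap under each of the 5 scalings tried.

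**Figure D1:**
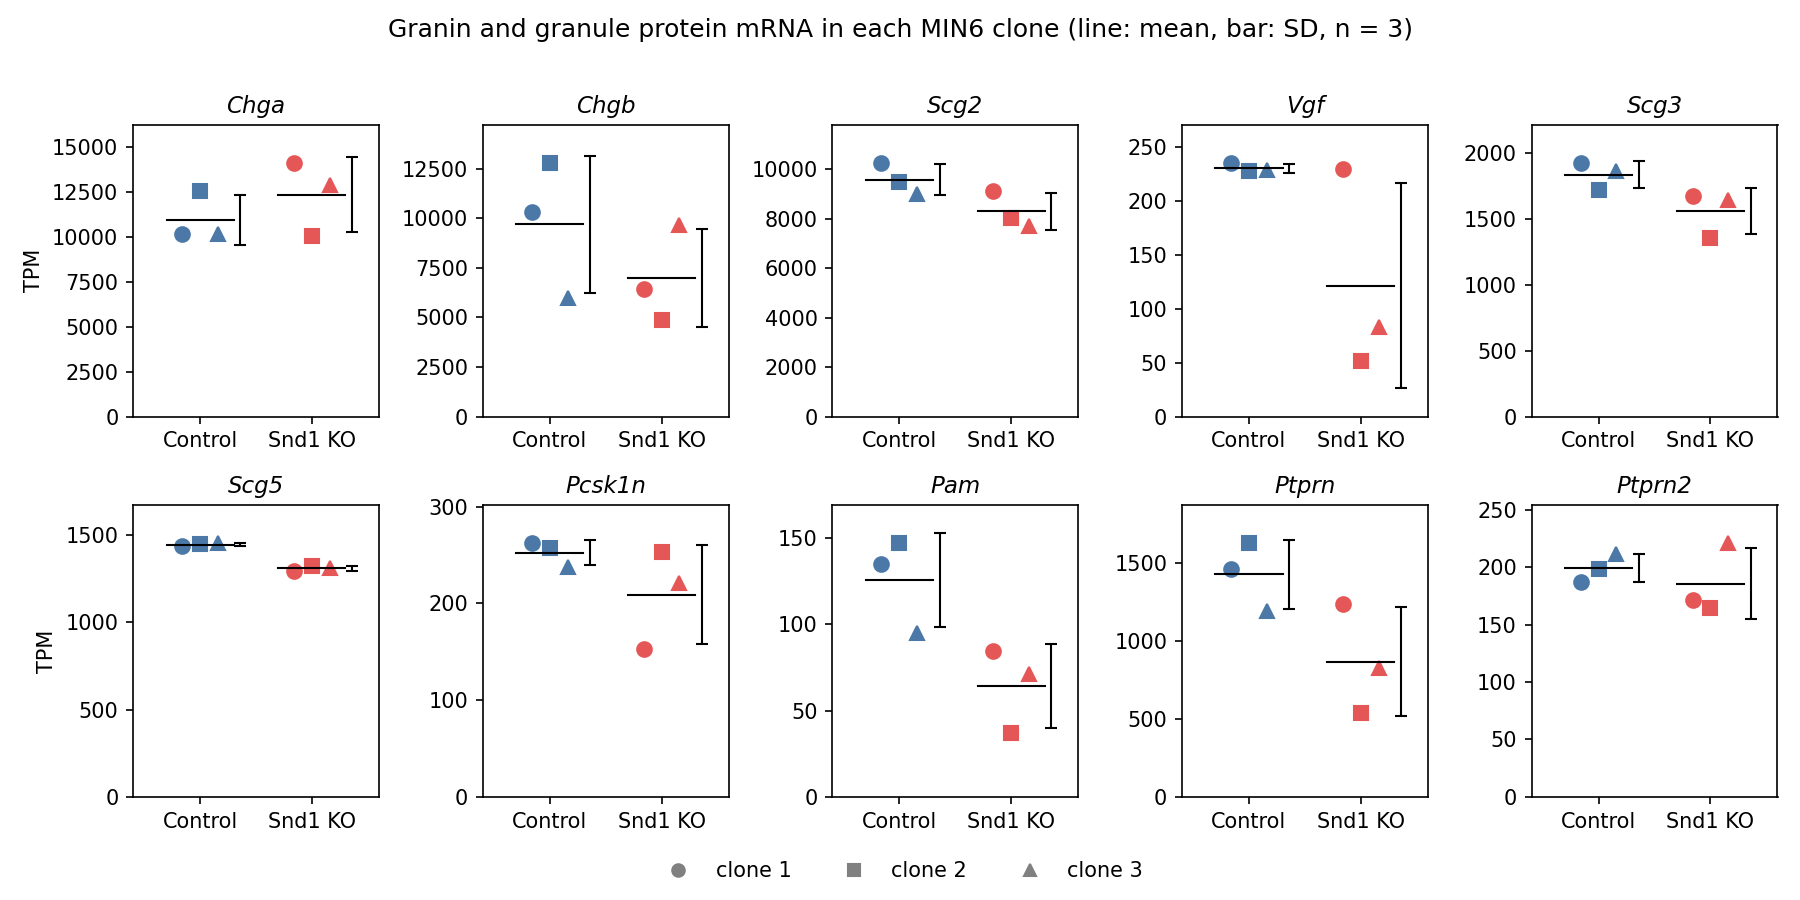
TPM of each of the 10 mRNAs in the 3 control (blue) and 3 *Snd1* KO (red) clones, 1 panel per gene with its own axis from 0. Each point is 1 clone, the line is the mean and the bar the SD. *Vgf* in *Snd1* KO 1 sits with the control clones at 230 TPM, whereas *Snd1* KO 2 and *Snd1* KO 3 are at 51.8 and 82.9 TPM.

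Of the granins, *Chga* (ENSMUSG00000021194, chromosome 12, 102554969 to 102565028, plus strand) encodes chromogranin A, the founding granin and the precursor of pancreastatin. It had 10155, 12549 and 10129 TPM in control 1 to 3 and 14101, 10065 and 12866 TPM in *Snd1* KO 1 to 3. *Snd1* KO 1 and *Snd1* KO 3 were the highest of the 6 clones and *Snd1* KO 2 was the lowest, so the groups overlapped. The log2 fold change was 0.17 (SE 0.27, 95% interval −0.47 to 0.80, limma adjusted p = 0.887), from 0.064 without *Snd1* KO 1 to 0.31 without *Snd1* KO 2, so neither direction was shown for this granin.

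*Chgb* (ENSMUSG00000027350, chromosome 2, 132781278 to 132795079, plus strand) encodes chromogranin B, a tyrosine-sulphated granin. It had 10299, 12786 and 5983 TPM in control 1 to 3 and 6417, 4880 and 9677 TPM in *Snd1* KO 1 to 3. Control 3 was lower than 2 of the 3 *Snd1* KO clones, and the means of 9689 ± 3442 and 6991 ± 2450 TPM (SD, n = 3) differed by less than the spread within control. Its fold change was −0.46 on the log2 scale (SE 0.39, 95% interval −1.39 to 0.48, adjusted p = 0.758), from −0.77 without Control 3 to −0.22 without Control 2.

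*Scg2* (ENSMUSG00000050711, chromosome 1, 79434669 to 79440120, minus strand) encodes secretogranin II, the precursor of secretoneurin. It had 10244, 9496 and 8987 TPM in control and 9125, 8036 and 7711 TPM in *Snd1* KO 1 to 3. *Snd1* KO 1 was just above Control 3 and the other *Snd1* KO clones were below all controls. On the log2 scale *Scg2* differed by −0.21 (SE 0.22, 95% interval −0.74 to 0.32, adjusted p = 0.812). Of the genes whose CRE letters are shown, *Chgb* and *Scg2* with the full motif had 72.2% and 86.6% of the control mean, *Ptprn*, *Scg3* and *Chga* with the shorter letters had 60.8%, 84.8% and 113%, and none of these differences passed the test. *Scg5*, also with the shorter letters, had 90.6%, and *Ptprn2*, *Pcsk1n* and *Pam*, with neither, had 93.2%, 82.9% and 51.2%.

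*Vgf* (ENSMUSG00000037428, chromosome 5, 137026392 to 137033351, plus strand) encodes a neurotrophin-inducible granin whose peptides include TLQP and NERP peptides. It had 235, 228 and 229 TPM in control 1 to 3 and 230, 51.8 and 82.9 TPM in *Snd1* KO 1 to 3, from 11122, 10219, 9331, 9786, 2122 and 3642 reads. The control clones lay within a narrow range, *Snd1* KO 1 lay inside that range, and *Snd1* KO 2 and *Snd1* KO 3 lay far below it with 22.4% and 35.9% of the control mean. Control clones averaged 231 ± 4.19 TPM and *Snd1* KO clones 122 ± 95.2 TPM (SD, n = 3 each), with a log2 fold change of −1.20 (SE 0.49, 95% interval −2.38 to −0.019, limma unadjusted p = 0.0473, adjusted p = 0.607). The exact permutation test gave p = 0.3. Leaving out *Snd1* KO 1 gave −1.80 and leaving out *Snd1* KO 2 gave −0.73, and with clones weighted by their estimated quality it was −1.47 (limma adjusted p = 0.0234), a setting in which 5.02% of all genes tested passed.

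Of the 10 mRNAs, *Vgf* varied most over the 6 clones, with an SD of 0.95 on the log2 scale. Among 11367 other genes that averaged 5 TPM or more, those closest to its pattern were *Gm379*, *Fbp1*, *Gm27168*, *Ubr4* and *Sdf2l1*, with a root mean square difference of 0.14, 0.20, 0.21, 0.24 and 0.26 on the log2 scale after centring on the mean of the clones. *Sdf2l1*, an endoplasmic reticulum protein induced in the unfolded protein response, had 601, 547 and 552 TPM in control and 701, 201 and 287 TPM in *Snd1* KO 1 to 3. *Fbp1*, the gluconeogenic enzyme fructose bisphosphatase, had 29.0, 21.8 and 29.6 TPM in control and 35.8, 6.12 and 9.13 TPM in *Snd1* KO 1 to 3. In each of these, as in *Vgf*, *Snd1* KO 1 stood within or above the control range and *Snd1* KO 2 was lowest, which is the likeness by which they were picked.

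*Scg3* (ENSMUSG00000032181, chromosome 9, 75643189 to 75684056, minus strand) encodes secretogranin III, which binds cholesterol in the granule membrane and holds chromogranin A there. It had 1925, 1723 and 1865 TPM in control and 1678, 1357 and 1642 TPM in *Snd1* KO 1 to 3. Every *Snd1* KO clone was below every control clone, and the means were 1838 ± 104 and 1559 ± 176 TPM (SD, n = 3). The log2 fold change was −0.24 (SE 0.15, 95% interval −0.60 to 0.12, adjusted p = 0.694), with −0.15 without *Snd1* KO 2, and the exact permutation test gave p = 0.1, the smallest that 3 clones against 3 allow.

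The convertase-binding proteins had lower means in *Snd1* KO clones by small amounts. *Scg5* (ENSMUSG00000023236, chromosome 2, 113776362 to 113829121, minus strand) encodes the chaperone that the convertase *Pcsk2* needs to mature. It had 1440, 1447 and 1454 TPM in control and 1295, 1325 and 1313 TPM in *Snd1* KO 1 to 3. It was the steadiest of the 10 mRNAs within each group, with means of 1447 ± 7.23 and 1311 ± 14.9 TPM (SD, n = 3), and the groups did not overlap. Its log2 fold change was −0.14 (SE 0.12, 95% interval −0.43 to 0.15, limma adjusted p = 0.758), where limma takes the spread of genes of similar level into account, and the exact permutation test gave p = 0.1.

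*Pcsk1n* (ENSMUSG00000039278, chromosome X, 7919822 to 7924410, plus strand) encodes proSAAS, an inhibitor of the convertase *Pcsk1*. It had 262, 257 and 238 TPM in control and 153, 253 and 221 TPM in *Snd1* KO 1 to 3. *Snd1* KO 1 alone was far below the others, and *Snd1* KO 2 lay within the control range. *Pcsk1n* had a log2 fold change of −0.30 (SE 0.19, 95% interval −0.76 to 0.16, adjusted p = 0.696), from −0.45 without *Snd1* KO 2 to −0.091 without *Snd1* KO 1.

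*Pam* (ENSMUSG00000026335, chromosome 1, 97795114 to 98095646, minus strand) encodes peptidylglycine α-amidating monooxygenase, an integral membrane enzyme of the granule that is required for amidated peptides. It had 135, 147 and 94.9 TPM in control and 84.7, 37.1 and 71.2 TPM in *Snd1* KO 1 to 3. All *Snd1* KO clones were below all control clones, at 67.4%, 29.5% and 56.6% of the control mean, although *Snd1* KO 1 came close to Control 3. The group means were 126 ± 27.3 and 64.3 ± 24.5 TPM (SD, n = 3) and the log2 fold change was −1.01 (SE 0.32, 95% interval −1.79 to −0.24, limma unadjusted p = 0.0179, adjusted p = 0.575). The exact permutation test gave p = 0.1. The fold change ran from −1.25 without *Snd1* KO 1 to −0.66 without *Snd1* KO 2, and it was −1.06 with clone quality weights (limma adjusted p = 0.0281).

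Of the receptor-type phosphatase family genes, *Ptprn* (ENSMUSG00000026204, chromosome 1, 75247027 to 75264502, minus strand) had 1461, 1626 and 1193 TPM in control and 1238, 539 and 827 TPM in *Snd1* KO 1 to 3. *Snd1* KO 1 was above Control 3, whereas *Snd1* KO 2 and *Snd1* KO 3 were below every control clone. The log2 fold change was −0.79 (SE 0.31, 95% interval −1.52 to −0.05, limma unadjusted p = 0.0395, adjusted p = 0.607), from −1.08 without *Snd1* KO 1 to −0.48 without *Snd1* KO 2. With clone quality weights it was −0.94 (limma adjusted p = 0.0258), short of the 2-fold limit. *Ptprn2* (ENSMUSG00000056553, chromosome 12, 116485720 to 117276849, plus strand) had 187, 198 and 212 TPM in control and 172, 164 and 221 TPM in *Snd1* KO 1 to 3. *Snd1* KO 3 was the highest clone and *Snd1* KO 2 the lowest, and the log2 fold change was −0.11 (SE 0.14, 95% interval −0.45 to 0.22, limma adjusted p = 0.847), with the direction turned to 0.10 under clone quality weights and values of −0.24 without *Snd1* KO 3 and −0.031 without *Snd1* KO 2.

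**Figure D2:**
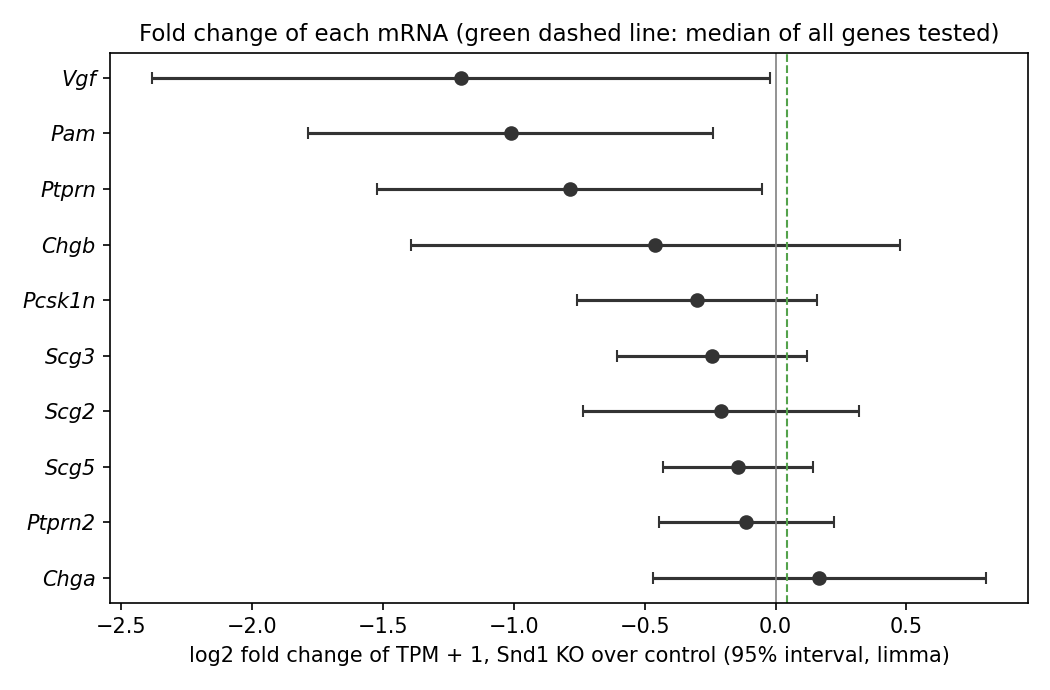
Log2 fold change of TPM + 1 in *Snd1* KO over control for each of the 10 mRNAs, with 95% intervals from limma. The grey line is 0 and the green dashed line is the median of all genes tested. The intervals of *Vgf*, *Pam* and *Ptprn* lie below 0, from −1.20 for *Vgf* to 0.17 for *Chga* at the other end.

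Across the group the clones carried unequal parts of the difference. *Snd1* KO 2 had the lowest value of the 6 clones for 7 of the 10 genes, *Snd1* KO 1 for 2 and *Snd1* KO 3 for 1, and no control clone was lowest for any. *Snd1* KO 1 and *Snd1* KO 2 were each below the control mean for 9 of the 10 genes and *Snd1* KO 3 for 8, while Control 3 was below it for 7. *Snd1* KO 2, with the lowest granin values, was also the *Snd1* KO clone with the highest *Snd1* mRNA, as given above. That mRNA does not measure the SND1 protein left, and a link with the granin values was not tested. The reads that genes overlapping a member could add were few, with a mean of at most 45.3 reads per clone (*B230216N24Rik* in *Pam*), and the antisense *Gm28294* at *Ptprn* held 32.7. The library kit does not mark strand, so reads of *Ptprn* and *Gm28294* cannot be told apart where they overlap.

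Ratios of members within a clone do not depend on the scaling between clones. They were taken from the deposited TPM, so their size depends on the gene lengths used, whereas their log2 difference between the groups does not. Of 8 ratios fixed by role, 3 did not overlap between the groups, all lower in *Snd1* KO clones, and after Benjamini-Hochberg adjustment over the 8 none was below 0.229, the smallest adjusted value reached. *Vgf* over *Chga* was 0.0232, 0.0182 and 0.0226 in control and 0.0163, 0.00514 and 0.00644 in *Snd1* KO 1 to 3. This ratio placed *Snd1* KO 1 below all controls too, with a mean difference of −1.38 on the log2 scale (exact permutation p = 0.1), although its *Vgf* level was at that of the controls and its *Chga* level was the highest of all clones. *Scg3* over *Chga* was 0.190, 0.137 and 0.184 in control and 0.119, 0.135 and 0.128 in *Snd1* KO 1 to 3, a difference of −0.41 (exact permutation p = 0.1). The chaperone *Scg5* over its enzyme *Pcsk2* was 1.20, 1.22 and 1.28 in control and 0.977, 1.17 and 1.07 in *Snd1* KO 1 to 3, a difference of −0.21 (exact permutation p = 0.1).

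The other 5 ratios overlapped between the groups. *Chgb* over *Chga* differed by −0.63 and *Scg2* over *Chga* by −0.38 on the log2 scale, each with an exact permutation p of 0.2. *Pam* over the carboxypeptidase *Cpe* was 0.0389, 0.0425 and 0.0224 in control and 0.0234, 0.0108 and 0.0212 in *Snd1* KO 1 to 3, a difference of −0.93 (exact permutation p = 0.2). This difference ran from −1.22 without Control 3 to −0.58 without *Snd1* KO 2. *Ptprn2* over *Ptprn* was 0.128, 0.122 and 0.178 in control and 0.139, 0.305 and 0.267 in *Snd1* KO 1 to 3, so that *Snd1* KO 2 and *Snd1* KO 3 were above all controls and *Snd1* KO 1 was not (exact permutation p = 0.2). The inhibitor *Pcsk1n* over its enzyme *Pcsk1* ranged from 0.207 in *Snd1* KO 1 to 0.535 in *Snd1* KO 2, with the control clones between them at 0.304, 0.377 and 0.459 (exact permutation p = 0.9).

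**Figure D3:**
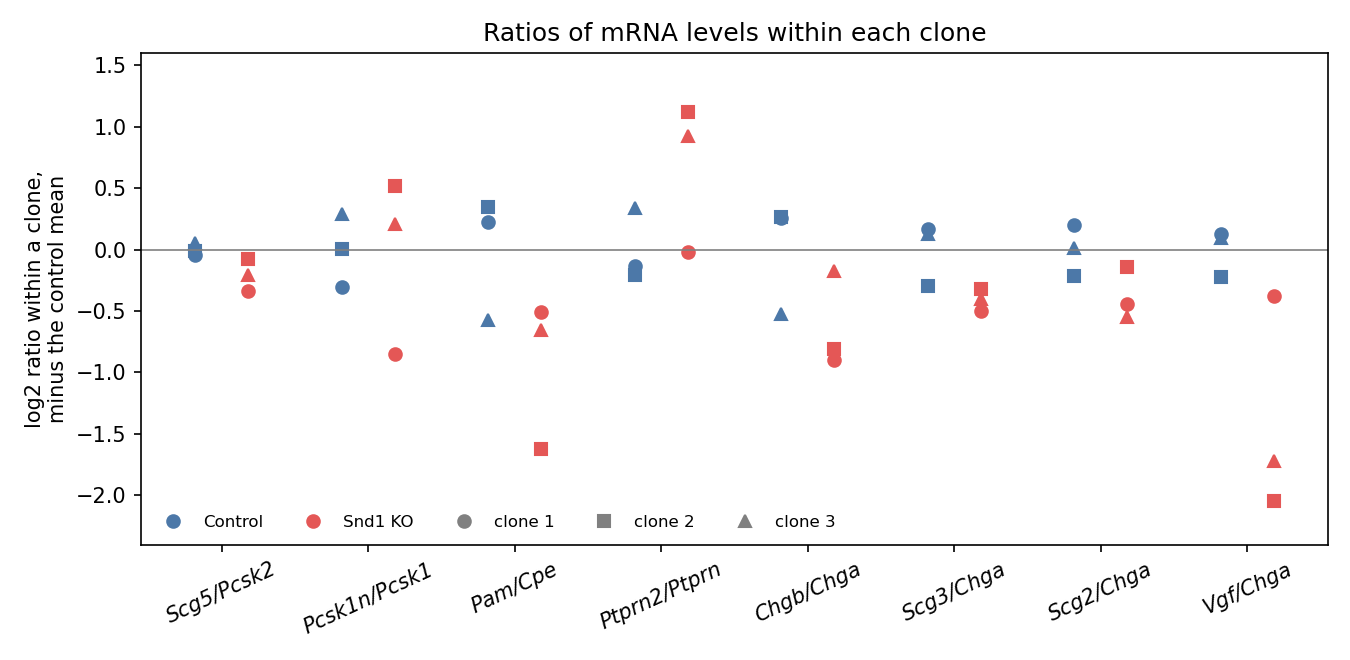
Log2 of 8 ratios of mRNA levels within each clone, minus the mean of the control clones, for control (blue) and *Snd1* KO (red). Shapes mark clones 1, 2 and 3. The groups do not overlap for *Scg5* over *Pcsk2*, *Scg3* over *Chga* and *Vgf* over *Chga*.

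The rest of the granule machinery was read from 56 other genes listed by role. None was differentially expressed (limma, adjusted p of at least 0.372, and 0 with voom on recovered reads), 9 had an unadjusted p-value under 0.05 (1419 of 17823 over all genes), 2 were lower (4.03% over all genes) and 11 higher (9.69%) in every *Snd1* KO clone, and the median log2 fold change was 0.041, close to that of all genes tested. With clone quality weights 3 of the 56 passed, near the 5.02% of all genes that did. These were *Npy* (−1.29, limma adjusted p = 0.0388), *Slc17a9* (−1.28, limma adjusted p = 0.0243) and *Slc30a8* (1.89, limma adjusted p = 0.0216). Of 6 cargo genes, 4 were negative and 2 positive with a median of −0.26. *Npy*, a peptide hormone of the granule that is amidated by the enzyme encoded by *Pam*, had 28619, 19691 and 30551 TPM in control and 19236, 13564 and 8588 TPM in *Snd1* KO 1 to 3. Its groups did not overlap, with a log2 fold change of −0.98 (SE 0.40, limma adjusted p = 0.607).

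Of 6 processing enzymes, 3 were negative and 3 positive with a median of −0.016, and none was lower (4.03% of all genes) or higher (9.69%) in every *Snd1* KO clone. *Pcsk1*, the convertase that *Pcsk1n* inhibits, had a log2 fold change of −0.26 and *Cpd*, a carboxypeptidase of the Golgi, one of −0.10, while *Furin*, the convertase of the constitutive pathway, was at 0.13 (limma adjusted p of at least 0.790 for all). Leaving out 1 clone moved *Pcsk1* between −0.45 and −0.077, *Cpd* between −0.24 and −0.0052 and *Furin* between 0.0079 and 0.19. *Qpct*, which makes pyroglutamate at peptide starts, was listed at 37.4, 69.0 and 0.105 TPM in control and at 0.0, 43.8 and 92.3 TPM in *Snd1* KO 1 to 3, so that it varied between clones and not with the groups. Of 12 genes of granule biogenesis, 7 were negative and 5 positive with a median of −0.055. *Hid1*, a Golgi protein needed for granule formation, had a log2 fold change of −0.39 and *Rab2b* one of −0.28, whereas the related *Rab2a* (0.27) and the Golgi SNARE *Stx6* (0.18) were higher in every *Snd1* KO clone, 2 of 12 against 9.69% of all genes (adjusted p of at least 0.630 for these 4 genes). Leaving out 1 clone moved *Hid1* between −0.68 and −0.15, *Rab2b* between −0.52 and −0.15, *Rab2a* between 0.19 and 0.35 and *Stx6* between 0.11 and 0.24.

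Among granule membrane genes, means were on either side of control. Of 18 membrane genes, 8 were negative and 10 positive with a median of 0.051, 1 was lower and 3 were higher in every *Snd1* KO clone, against 4.03% and 9.69% of all genes. The granule zinc transporter *Slc30a8* had 215, 191 and 744 TPM in control and 809, 1005 and 779 TPM in *Snd1* KO 1 to 3, a log2 fold change of 1.45 (SE 0.50, limma adjusted p = 0.585), and Control 3 was close to the *Snd1* KO clones. *Sytl4*, encoding granuphilin, which docks granules at the plasma membrane, had 124, 103 and 154 TPM in control and 230, 233 and 166 TPM in *Snd1* KO 1 to 3, a log2 fold change of 0.72 (SE 0.20, limma adjusted p = 0.568). The largest fall was that of *Slc17a9*, with a log2 fold change of −0.88 (limma adjusted p = 0.622). The gene lower in every *Snd1* KO clone was *Atp6v0a1*, at −0.34 (limma adjusted p = 0.607). *Slc17a9* and *Atp6v0a1* were named after their values were seen.

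Of 14 regulators of granin and granule genes, 5 were negative and 9 positive with a median of 0.19, and 6 were higher in every *Snd1* KO clone, against 9.69% of all genes. *Neurod1*, a transcription factor that binds E boxes, had 399, 382 and 355 TPM in control and 556, 676 and 726 TPM in *Snd1* KO 1 to 3. Its groups were well apart, with a log2 fold change of 0.78 (SE 0.14, limma adjusted p = 0.372). The others were *Insm1*, *Pax6*, *Isl1*, *Creb1* and *Atf1*, named after their values were seen. The CRE-binding factors *Creb1* and *Atf1* averaged 14.1 and 32.5 TPM over the control group and 18.5 and 39.8 TPM over the *Snd1* KO group (n = 3 each), with log2 fold changes of 0.38 (SE 0.13) and 0.28 (SE 0.099), and limma adjusted p-values of 0.589 and 0.586, while the related *Crem* had 3.23 and 2.61 TPM and a log2 fold change of −0.30 (limma adjusted p = 0.852). The value of *Crem* ran from −0.68 without *Snd1* KO 1 to −0.043 without *Snd1* KO 2. *Rest*, the repressor, was near 1 TPM, at 1.35, 1.68 and 0.377 TPM in control and 1.84, 0.996 and 1.06 TPM in *Snd1* KO 1 to 3.

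**Figure D4:**
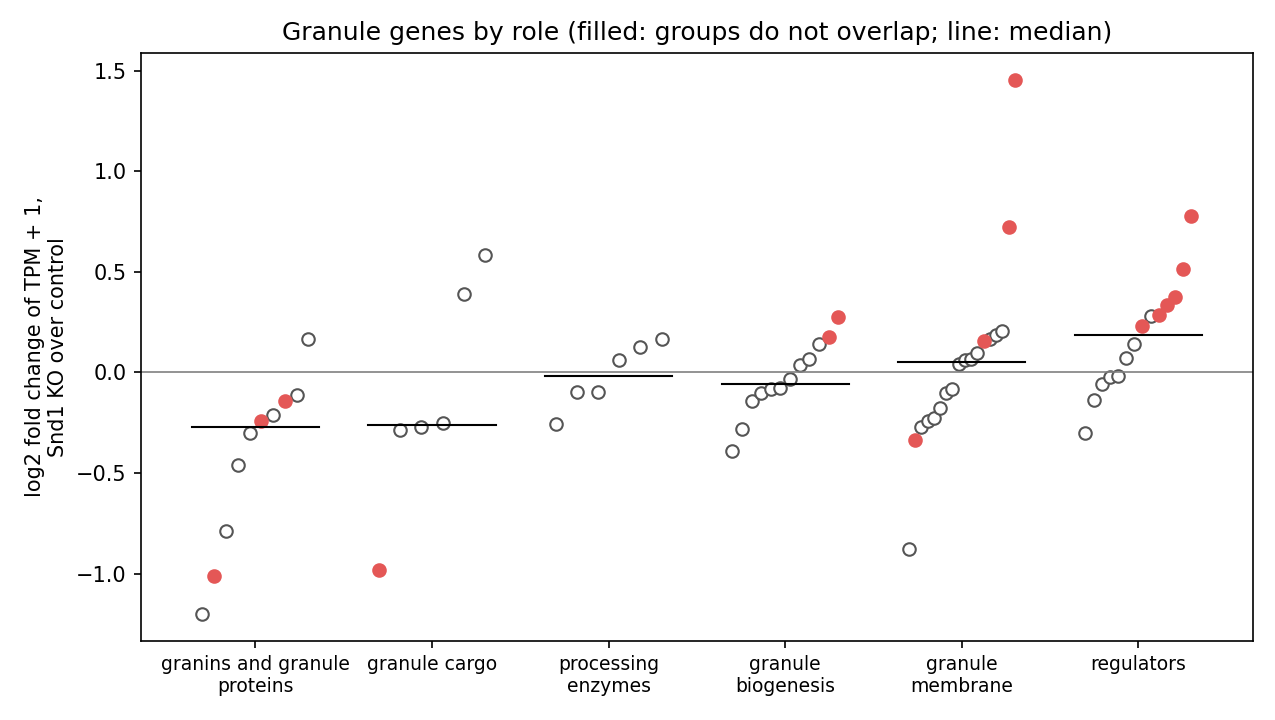
Log2 fold change of TPM + 1 in *Snd1* KO over control for the 10 granins and granule proteins and for 56 other granule genes by role. Each point is 1 gene, filled red where the groups do not overlap, and the line is the median. The medians run from −0.27 for the granins and granule proteins to 0.19 for the regulators.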

How the data were processed

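RNA-sequencing data of 6 clonal MIN6 β cell lines (3 control, 3 *Snd1* KO) were used. The authors made paired-end libraries with a Nextera XT kit, used the Genialis platform for read processing, and deposited TPM for each gene and clone. The submitters' processing notes name FastQC, Trimmomatic, HISAT2, HTSeq, DESeq2 and the build mm10, without versions. The annotation release is not given in the sources used here. Of 53900 rows, 99 spike-in rows (at most 1.02 TPM in sum) were left out.

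Genes were matched to GENCODE M21 (53706 of 53801). TPM multiplied by the length summed over all transcripts gave whole reads for 94.4% of 30920 genes above 0 (tolerance 0.01) and for all 10 members. These reads gave the depth, which covers counting error only. For the 17823 genes that averaged 0.5 TPM or more, log2(TPM + 1) was compared by limma 3.58.1 (lmFit, eBayes with trend, R 4.3.3), and p-values were adjusted over all of them after Benjamini and Hochberg. Fold changes on this scale understate those of low genes. Single values and ratios were compared by exact two-sided permutation tests in Python 3.11.15 with scipy 1.17.1. The comparison was tested on simulated data.

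The members and lists were chosen with earlier results of these data known. Named genes were the members, list genes past the threshold or with groups that do not overlap and at least a 1.5-fold change, otherwise up to 2 per list and direction, and the 5 genes most like the most variable member. Alternatives were a pseudocount of 0.1, no filter or at least 5 TPM, 3 other scalings, no trend, clone quality weights, a replicate block and leaving out each clone. voom on recovered reads and TPM with each exonic base counted once for every gene were added after seeing the data. Values of some marker genes are not reported here.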

Additional observations from a re-analysis of the deposited data

How the results depend on the processing

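Over 17 alternative settings, 167 of 170 fold changes of single members kept their direction and their side of the threshold, and the adjusted p-values lay between 0.0234 and 0.989. Clone quality weights gave the remaining 3: *Vgf* (−1.47) and *Pam* (−1.06) passed and *Ptprn2* turned to 0.10, while *Ptprn* (−0.94, limma adjusted p = 0.0258) stayed short of 2-fold. With these weights 2 members, 3 of the 56 other granule genes and 895 of all genes were called, against 0, 0 and 1 before. Control 3 and *Snd1* KO 1 then had weights of 0.279 and 0.286, against 3.91 for *Snd1* KO 3. The single call over all genes was 0 with no filter, without the trend, with the replicate block and with voom on recovered reads, and 0 to 2 when 1 clone was left out, with 2 without *Snd1* KO 2. An unadjusted p-value under 0.05 with at least a 2-fold change gave 400 genes and 2 members. Clones of the same number did not vary together (correlations of 0.115, −0.199 and −0.108 over 11368 genes), and Control 2 and Control 3 correlated best with *Snd1* KO clones of another number (0.140 and 0.250), so the replicate block, which called 0 members and 0 of all genes, pairs clones only by number. Members lower in every *Snd1* KO clone numbered 6 with the median ratio, where 6.14% of all genes were. Counting each exonic base once, 4 of 10 members kept their rank by level. The cause of these changes was not tested. With 3 clones per group the exact test cannot go below 0.1.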
